A study of Homo sapiens with 6 samples.

Results

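The immunoglobulin constant region genes described here are 10 genes, IGHG1, IGHG2, IGHG3, IGHA1, IGHM, IGKC, IGLC1, IGLC2, IGLC3 and IGLL5, taken by symbol through their Ensembl identifiers on the primary chromosomes. All 10 were found among the 63677 genes of the count table, and the rule that lists them uses no measured value, although it was written with earlier results of these data known. RNA-Seq was run on the human multiple myeloma cell line RPMI8226, labelled wild type, after 6 hr with 100 nM GST-PTR1 or 100 nM GST. GST-PTR1 carries a domain of HAPLN1, a matrix protein of the bone marrow, on glutathione-S-transferase (GST), and GST alone is the control, so every library came from cells given a bacterially made GST protein and no library came from untreated cells. Each treatment had 3 libraries labelled as biological replicates, and the results hold for this 1 line. The comparison asks how the antibody genes of a myeloma cell read out after contact with the matrix fragment.

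Libraries held 15202503 to 23453473 counts with GST and 22874133 to 44688737 with GST-PTR1. They are named below by the number in the column names of the table, GST libraries 3, 4 and 5 and GST-PTR1 libraries 2, 4 and 5. The samples carry other replicate numbers, so a library is known by its treatment only. The cells were checked against markers fixed for several cell types. All 9 plasma cell markers were detected, with a summed level of 4285 to 5238 counts per 1000000 counts of a library (CPM) with GST and 3743 to 4326 CPM with GST-PTR1. JCHAIN, at a mean of 2220 CPM over all libraries, was the largest part of the sum. In the test described below, 3 of the 9 rose and 3 fell with GST-PTR1, beside 9.15% and 11.4% of all tested genes. Of the 6 T cell markers, CD3D, CD3E and CD3G had at most 3 counts in every library, while CD8A had 77 to 131 counts, CD4 6 to 18 and CD247 5 to 17. CR2 and FCER2, receptors also known from mature B cells, were at 312 ± 22.5 and 79.96 ± 9.98 CPM with GST and 239 ± 29.9 and 61.5 ± 5.66 CPM with GST-PTR1. The part of these markers in the results was not tested. Of the stromal markers, 4 of 5 (COL1A2, COL3A1, LUM and DCN) were at 0.

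An antibody is built from a pair of heavy chains and a pair of light chains. The variable end of each chain binds antigen, and the constant end sets the class: IGHM encodes the heavy chain of IgM, the IGHG genes those of the IgG subclasses and IGHA1 that of IgA1. In class switching, a B cell removes the constant genes that lie between its variable segment and the class it turns to, and each cell normally keeps either a kappa light chain, from IGKC, or a lambda light chain, from one of the IGLC genes. IGLL5 lies over IGLC1 and shares its exon. Myeloma cells are transformed plasma cells, which devote much of their mRNA to antibody, and RPMI8226 is known as a producer of lambda light chains.

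The constant genes are close copies of each other, and the count table leaves out any read that mapped to several places. The sequences of the 2 most abundant members are shown because they set how much of each can be counted. The coding parts of IGLC2 and IGLC3, read 5′ to 3′ from the reference transcripts of GENCODE release 29, have 317 bases each and are 99.1% identical. They are printed from their first base to 20 bases past the last difference, and capitals mark the 3 bases at which they differ.
IGLC2: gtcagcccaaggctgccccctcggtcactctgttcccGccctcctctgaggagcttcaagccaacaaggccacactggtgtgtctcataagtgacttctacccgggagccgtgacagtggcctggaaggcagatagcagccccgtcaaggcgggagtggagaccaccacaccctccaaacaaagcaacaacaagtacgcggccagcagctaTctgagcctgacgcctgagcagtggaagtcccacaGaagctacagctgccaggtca
IGLC3: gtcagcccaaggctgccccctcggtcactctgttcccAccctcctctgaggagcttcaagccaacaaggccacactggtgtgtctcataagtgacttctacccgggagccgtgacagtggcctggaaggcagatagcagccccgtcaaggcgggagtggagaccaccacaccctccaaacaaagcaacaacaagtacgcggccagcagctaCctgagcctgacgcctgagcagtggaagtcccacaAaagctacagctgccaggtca
The longest run without a difference is 173 bases. Of all stretches of 50 bases in the IGLC3 transcript, 32.9% occurred in no other gene, and of stretches of 100 bases 70.0% did. IGLC2 was like it, at 33.9% and 70.0%. The heavy chain members are copies as well, with 94.9% to 96.4% identity among the coding parts of IGHG1 to IGHG4 and 96.1% between IGHA1 and IGHA2. The light chain types are far apart, and IGLC2 and IGKC are 57.3% identical.

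The IgG genes part most clearly in the hinge, the flexible stretch whose cysteines help to join the chains of the antibody. Their exon 2 is shown because IGHG2 was the member that passed the test between treatments. Capitals mark cysteine codons, of which IGHG2 has 4 in this exon, IGHG1 3 and IGHG3 and IGHG4 2 each. For IGHG3 the exon is the first of several hinge exons.
IGHG1: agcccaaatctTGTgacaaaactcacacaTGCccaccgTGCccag
IGHG2: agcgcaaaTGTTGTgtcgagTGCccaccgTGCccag
IGHG3: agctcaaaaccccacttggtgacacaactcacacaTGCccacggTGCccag
IGHG4: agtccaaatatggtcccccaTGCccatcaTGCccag
Over the whole transcripts, 52.9% of the stretches of 50 bases of IGHG2 were found in no other gene, against 55.2% for IGHG1, 70.8% for IGHG3 and 75.4% for IGHA1. All stretches of IGHM and IGKC were found in no other gene. Counts of IGLC2, IGLC3, IGHG1 to IGHG3 and IGHA1 may therefore be partial, and how partial depends on the read length, which is not given in the sources used here.

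**Figure D1:**
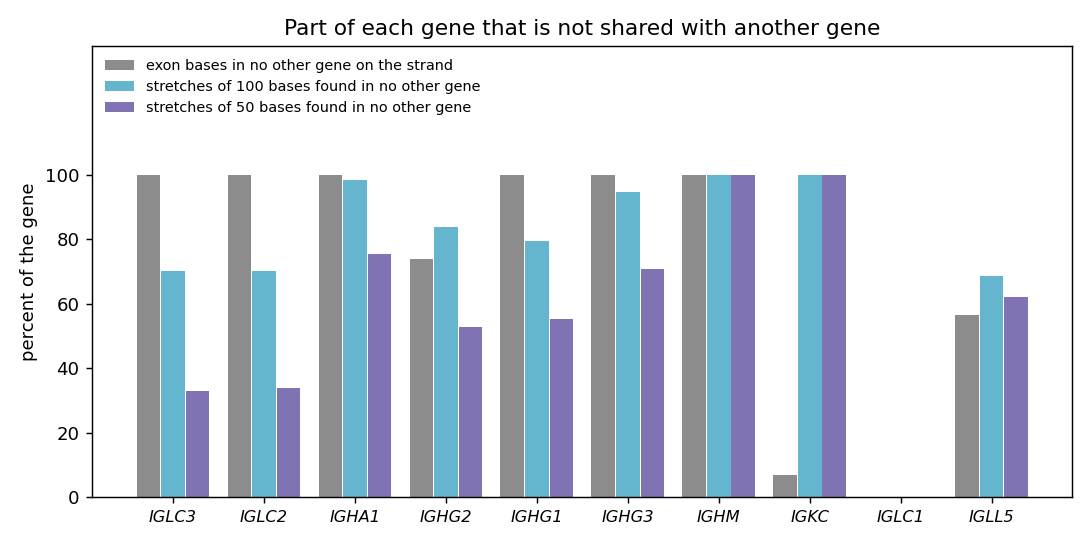
For each member, grey bars give the percent of exon bases that no other gene on the strand covers, light blue bars the percent of 100-base stretches and purple bars the percent of 50-base stretches of its transcript found in no other gene. IGLC1 has no bar because all its exon bases and stretches are shared with IGLL5, and IGKC keeps 100.0% of its stretches but few unshared exon bases.

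The lambda genes stood far above the heavy chain genes. In RPKM, which is CPM divided by the exon length in kilobases, IGLC3 stood at 12674 ± 827 (SD, n = 3) with GST and 13825 ± 1234 with GST-PTR1, and IGLC2 had 11055 ± 1191 and 11705 ± 981. IGHA1 came next, at 146 ± 67.1 and 121 ± 16.2 RPKM. IGHG2 followed with 41.9 ± 2.19 and 51.9 ± 4.10 RPKM, and IGHG1 and IGHG3 stayed around 9.60 and 6.29 RPKM over all 6 libraries.

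This order was the same in each of the 6 libraries. IGLC3 was 1.08 to 1.21 times as high as IGLC2 within a library, a narrow gap between near copies, while the ranges of their levels over libraries overlapped. IGLC2 was 56.1 to 121 times as high as IGHA1. IGHA1 was 2.19 to 5.01 times as high as IGHG2, and IGHG1 was 1.28 to 1.67 times as high as IGHG3. This last ratio is in RPKM, where IGHG1 is divided by 2762 exon bases and IGHG3 by 1268. In CPM the gap was wider, at 25.7 against 7.89 with GST and 27.3 against 8.06 with GST-PTR1. The RPKM values use the whole exon length, so each of these ratios includes the part of each gene that could not be counted.

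**Figure D2:**
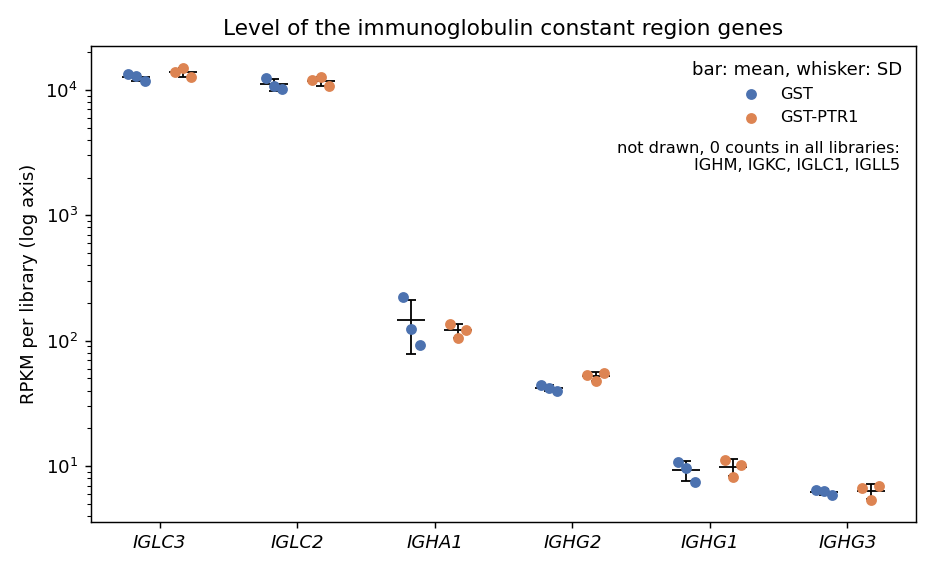
RPKM of the 6 members with counts in each library, on a log axis, with GST in blue and GST-PTR1 in orange, where bars and whiskers are the mean and SD of 3 libraries. The lambda genes IGLC3 and IGLC2 lie between 10125 and 15010 RPKM, and IGHA1, IGHG2, IGHG1 and IGHG3 between 5.36 and 221 RPKM. The other 4 members had 0 counts.

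IGHG2 was the member that rose with GST-PTR1. IGHG2 (ENSG00000211893) lies on the minus strand of chromosome 14 from 106109389 to 106111127 (GRCh37) and encodes the heavy chain of IgG2. It had 760, 1111 and 904 counts in GST libraries 3, 4 and 5, which are 49.99, 47.4 and 45.03 CPM. It had 1368, 2396 and 1808 counts in GST-PTR1 libraries 2, 4 and 5, which are 59.8, 53.6 and 62.7 CPM. All 3 GST-PTR1 libraries were above all GST libraries, on library totals and after TMM scaling (edgeR's correction of library size for composition). CPM and RPKM are given on library totals unless stated, and log2 fold changes come from the TMM-scaled fit, so the pair can differ in size or sign. The log2 fold change was 0.50 ± 0.10 (SE), a fold of 1.42, with an adjusted p of 0.00439 (edgeR's quasi-likelihood test, Benjamini-Hochberg adjustment across the 16926 genes tested). The call was lost on plain library totals, where the log2 fold change was 0.31 and the adjusted p 0.0622. On that scale 5.48% of all tested genes rose, and the median log2 fold change over the whole table moved from 0.01 to -0.19, a shift of -0.20.

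The annotated gene COPDA1 covers 294 of the 1132 exon bases of IGHG2, on the same strand, and reads there were not counted for either gene. COPDA1 (ENSG00000253364) had 139, 160 and 108 counts with GST and 186, 266 and 222 with GST-PTR1. Its log2 fold change of 0.23 ± 0.19 did not pass the test (adjusted p = 0.417, edgeR).

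Of the 10 members, 6 had enough counts to be tested, 1 rose, 0 fell and 5 did not pass. The count of 1 of 6 stands beside a background of 9.15% of all tested genes that rose and 20.6% that changed in either direction. At an unadjusted p under 0.05 there were 2 of the 6 members, beside 5964 of the 16926 genes tested. The median log2 fold change of the 6 was 0.28, with a range from -0.07 to 0.50, against 0.01 for all genes tested. It was positive in 5 of the 6 members and in 50.7% of all genes. Several of the 6 are close copies, and all share the same libraries and scaling, so their signs are not independent. No member changed by 2-fold, which 7.53% of all tested genes did with an adjusted p under 0.05.

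IGLC3 (ENSG00000211679, plus strand of chromosome 22 from 23248512 to 23248973) was the most counted member. Its GST libraries 3, 4 and 5 had 94025, 139418 and 109157 counts, or 6185, 5944 and 5437 CPM. Its GST-PTR1 libraries 2, 4 and 5 had 147066, 309905 and 167172 counts, or 6429, 6935 and 5797 CPM. On library totals the groups overlapped, since GST-PTR1 library 5 lay below GST libraries 3 and 4, and after TMM scaling they did not. The log2 fold change of 0.33 ± 0.14 did not pass the threshold (adjusted p = 0.127, edgeR). It did with DESeq2's test (adjusted p = 0.0364) and with a filter of at least 1 count in any library (adjusted p = 0.0360).

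IGLC2 (ENSG00000211677, plus strand of chromosome 22 from 23243156 to 23243617) had 87076, 115323 and 93914 counts in GST libraries 3, 4 and 5, or 5728, 4917 and 4678 CPM. In GST-PTR1 libraries 2, 4 and 5 it had 125706, 259670 and 141799 counts, or 5496, 5811 and 4917 CPM. The highest GST library lay above 2 of the 3 GST-PTR1 libraries. The log2 fold change was 0.28 ± 0.14 and the adjusted p 0.180 (edgeR).

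IGHA1 (ENSG00000211895, minus strand of chromosome 14 from 106173457 to 106175002) had the widest spread for its level among the members. It was at 245 CPM in GST library 3, 137 in GST library 4 and 103 in GST library 5. GST-PTR1 libraries 2, 4 and 5 had 152, 116 and 134 CPM, which lie inside the GST range. The log2 fold change was -0.07 ± 0.24 (adjusted p = 0.861, edgeR). Without GST library 3 it was 0.34 ± 0.13 and again missed the threshold (adjusted p = 0.113).

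IGHG1 (ENSG00000211896, minus strand of chromosome 14 from 106202680 to 106209408) had 452, 627 and 414 counts with GST and 711, 1020 and 809 with GST-PTR1. The levels of 25.7 ± 4.64 and 27.3 ± 4.18 CPM overlapped, and the log2 fold change was 0.28 ± 0.14 (adjusted p = 0.185, edgeR). IGHG3 (ENSG00000211897, minus strand of chromosome 14 from 106235439 to 106237742) had 125, 188 and 149 counts with GST and 195, 304 and 255 with GST-PTR1. Its levels of 7.89 ± 0.416 and 8.06 ± 1.10 CPM overlapped on library totals and did not overlap after TMM scaling. The log2 fold change was 0.22 ± 0.14 (adjusted p = 0.287, edgeR). After TMM scaling, the libraries of the 2 treatments did not overlap in 3 of the 6 members (IGHG2, IGHG3 and IGLC3), beside 40.4% of all tested genes. On library totals this was 1 of 6, IGHG2, beside 43.1%.

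**Figure D3:**
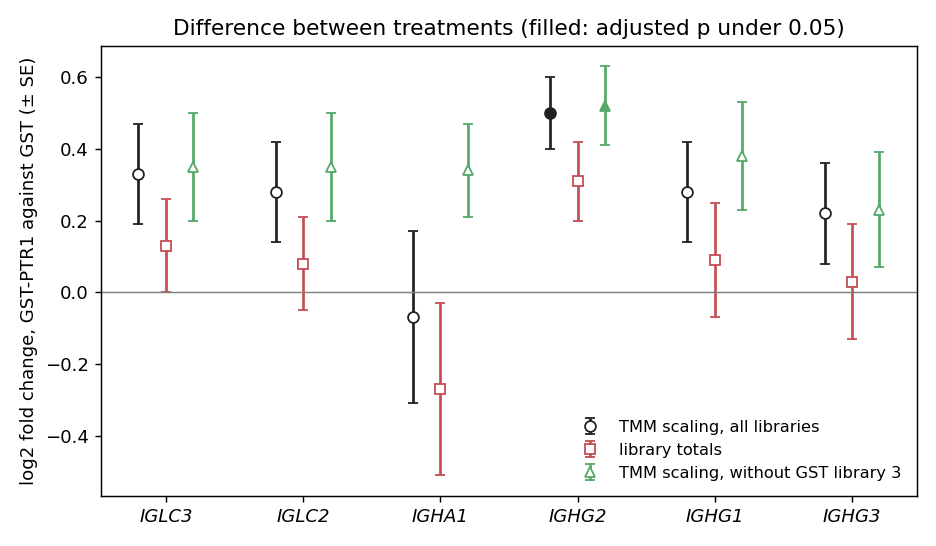
Log2 fold change of GST-PTR1 against GST with its SE for the 6 tested members, after TMM scaling (black circles), on library totals (red squares) and after TMM scaling without GST library 3 (green triangles); filled symbols have an adjusted p under 0.05. IGHG2 is at 0.50, 0.31 and 0.52 and is filled in the first and last setting, and IGHA1 moves from -0.07 to 0.34 when GST library 3 is left out.

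Added over the members, constant region mRNA took a part of the library that, on library totals, differed by less than the spread between libraries. The 10 members summed to 11206 ± 984 CPM with GST and 12023 ± 1007 CPM with GST-PTR1, a difference of 817 CPM (two-sided exact permutation test, p = 0.5). After TMM scaling the sums were 10457 ± 700.4 and 12904 ± 1595 CPM with no overlap (two-sided exact permutation test, p = 0.1, the smallest that 3 libraries against 3 allow). The immunoglobulin constant genes and segments listed by symbol together held 1.80% ± 0.165 of all counts with GST and 1.93% ± 0.158 with GST-PTR1. In these bulk libraries, a change in RNA per cell and a change in the number of cells that express a gene cannot be told apart.

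Shares within a family do not depend on how libraries are scaled. Lambda genes made up 97.9% ± 0.525 of the member counts with GST and 98.1% ± 0.327 with GST-PTR1. The heavy chain genes made up the remaining 2.14% ± 0.525 and 1.91% ± 0.327 (exact permutation test, p = 0.6). IGLC3 held 53.5% ± 1.43 of the counts on IGLC2 and IGLC3 with GST and 54.1% ± 0.249 with GST-PTR1 (exact permutation test, p = 0.6). The balance of the lambda near copies thus differed by less than the spread between libraries.

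Within the heavy chain families, the shares of IGHG2 and IGHA1 did not overlap between treatments. IGHG2 took 31.3%, 30.1% and 32.5% of the counts on IGHG1 to IGHG4 in GST libraries 3, 4 and 5, and 36.0%, 38.6% and 39.8% in GST-PTR1 libraries 2, 4 and 5. The means were 31.3% ± 1.20 and 38.1% ± 1.97 without overlap (exact permutation test, p = 0.1, the smallest possible). IGHG4, which encodes the IgG4 heavy chain, had 70.7 ± 4.95 and 60.2 ± 5.91 CPM (66.1 ± 4.24 and 64.3 ± 3.91 after TMM scaling), with a log2 fold change of -0.04 ± 0.10 (adjusted p = 0.808, edgeR).

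IGHA1 took 53.0%, 52.0% and 52.8% of the counts on IGHA1 and IGHA2 in GST libraries 3, 4 and 5, and 55.5%, 58.2% and 57.9% in GST-PTR1 libraries 2, 4 and 5. Both IgA genes had their highest level in GST library 3, and their balance there was close to that in the other GST libraries. The means were 52.6% ± 0.546 and 57.2% ± 1.51, again without overlap (exact permutation test, p = 0.1, the smallest possible). The pair of IgA genes made up 74.3% of all IGHG and IGHA counts in GST library 3, and 58.5% to 62.6% in the other 5 libraries. These shares were added after the counts had been seen, and the IGHG2 share uses the same IGHG2 counts as the test above. IGHA1 and IGHA2 had log2 fold changes of -0.07 ± 0.24 and -0.33 ± 0.24, and neither passed. After TMM scaling, 40.4% of all tested genes did not overlap between treatments, and no such rate was taken for shares.

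IGHM, IGKC, IGLC1 and IGLL5 had 0 counts in all 6 libraries, and the reasons a gene can read 0 in this table are unequal among them. IGHM (ENSG00000211899, chromosome 14 from 106320349 to 106322323) has 1461 exon bases, none of which another gene on its strand covers. A count of 0 allows up to 3 counts per library, or 0.0671 to 0.197 CPM, and 3 counts over all 6 libraries would be 0.0193 CPM (counting error only). IGHD, the gene of the IgD heavy chain, was at 0 as well. IGHE, that of IgE, had 12 to 43 counts.

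For IGKC and IGLC1 the table cannot give the level. IGKC (ENSG00000211592, minus strand of chromosome 2 from 89156674 to 89157196) shares 93.3% of its exon bases with ENSG00000231486, an annotated gene that runs from 89130700 to 89165653, and 35 bases remain its own. Reads on the shared bases were not counted for either gene. ENSG00000231486 had 1230, 1962 and 1736 counts with GST and 1876, 4368 and 2372 with GST-PTR1 on its other exon bases, with a log2 fold change of 0.26 ± 0.12 (adjusted p = 0.146, edgeR). IGLC1 (ENSG00000211675, plus strand of chromosome 22 from 23237555 to 23238014) lies wholly inside IGLL5 (ENSG00000254709, from 23229960 to 23238287), and their coding parts are 100.0% identical over 317 bases. The 753 exon bases of IGLL5 outside IGLC1 and IGLJ1 also drew 0 counts.

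Of the 11 other constant genes and pseudogenes, 7 were tested and 0 were called in edgeR, beside 20.6% of all tested genes. At an unadjusted p under 0.05 there was 1, beside 5964 of the 16926 genes tested. DESeq2's test also called 0 of them. Their median log2 fold change was 0.21. IGLC6, a lambda copy, had 2820 RPKM with GST and 2941 RPKM with GST-PTR1, and a log2 fold change of 0.26 ± 0.15 (adjusted p = 0.221, edgeR). IGHA2, the IgA2 gene, had 145 ± 64.8 and 100.8 ± 19.5 CPM, with 217 CPM in GST library 3, and a log2 fold change of -0.33 ± 0.24 (adjusted p = 0.354, edgeR). IGLC7 had 77.2 and 77.7 RPKM. The pseudogene IGHGP had the smallest adjusted p of the list, 0.101 (edgeR) for 0.36 ± 0.14, and passed without GST library 3.

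Nearly all counts on the listed variable segments were from lambda segments of the IGLV2 family. Of 253 segments listed, 198 were at 0, 11 were tested, 0 rose and 1 fell, beside 9.15% and 11.4% of all genes. The segments were listed by symbol, and IGLV2-8, which shares stretches with IGLV2-14, is not among them. The IGLV2 segments held 99.8% ± 0.0268 of the counts on listed variable segments with GST and 99.9% ± 0.0296 with GST-PTR1. IGLV2-14, IGLV2-23, IGLV2-28 and IGLV2-11 had 4974, 4902, 2271 and 1149 RPKM with GST. With GST-PTR1 they had 5540, 4987, 2661 and 1286 RPKM. Their log2 fold changes were 0.36 ± 0.13, 0.23 ± 0.15, 0.43 ± 0.17 and 0.37 ± 0.16. None passed (adjusted p = 0.0722, 0.296, 0.0973 and 0.126, edgeR), though DESeq2's test called IGLV2-14 higher. Over the 11 segments tested the median log2 fold change was 0.34. At an unadjusted p under 0.05 there were 6 of the 11, beside 5964 of the 16926 genes tested. The 7 IGLC genes had 2.07 to 2.17 counts for each count on the listed lambda variable segments in every library. IGLV2-14 and IGLV2-23 are 96.2% identical in their coding parts, so counts may be split among the segments.

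A pair of minor segments stood high in 1 library each. IGLV2-34 had 2558 counts in GST-PTR1 library 2 and 221 to 781 in the other libraries, with a log2 fold change of 1.87 ± 0.62 (adjusted p = 0.0553, edgeR). IGLV2-18 had 428 counts in GST-PTR1 library 4 and 19 to 38 elsewhere, with 1.97 ± 0.71 (adjusted p = 0.0738, edgeR). IGLV2-34 passed without GST-PTR1 library 4 or 5, and IGLV2-18 without GST-PTR1 library 2 or 5. The segment that fell was IGLV6-57, with 24, 31 and 27 counts under GST and 13, 20 and 15 under GST-PTR1, a log2 fold change of -1.27 ± 0.26 (adjusted p = 0.00557, edgeR). IGKV1D-43 and IGKV1D-8, the listed kappa segments with the most counts, had 41 to 125 and 42 to 166 counts. Of 54 diversity and joining segments, 49 were at 0 and 3 were tested (IGKJ3, IGKJ4 and IGKJ5). Of these 3, edgeR called 0, beside 20.6% of all tested genes, and DESeq2 called 0. At an unadjusted p under 0.05 there were 0, beside 5964 of the 16926 genes tested, and 3 segments are few for such a count.

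Of 21 genes listed for the folding, assembly and secretion of antibody, 20 were tested, 0 rose and 1 fell, beside 9.15% and 11.4% of all tested genes, with a median log2 fold change of 0.01. DNAJC3, a co-chaperone of the endoplasmic reticulum, fell by 0.35 ± 0.11 on the log2 scale (adjusted p = 0.0397, edgeR), from 55.4 ± 1.76 to 43.5 ± 3.97 TMM-scaled CPM, and lost the call when any 1 library was left out. JCHAIN, which joins IgA and IgM into polymers, had 2168 ± 153 and 2278 ± 460.1 TMM-scaled CPM (2324 ± 210.1 and 2117 ± 324 on library totals) and a log2 fold change of 0.07 ± 0.15 (adjusted p = 0.773, edgeR). SSR4, a subunit of the translocon-associated complex, had 291 ± 16.7 and 385 ± 75.9 TMM-scaled CPM and 0.40 ± 0.14 (adjusted p = 0.0667, edgeR), and passed without GST-PTR1 library 5. The disulfide isomerase gene PDIA4 and the chaperone genes PPIB and CALR had log2 fold changes of -0.26, 0.16 and -0.00, and none passed.

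Of 22 transcription factors of immunoglobulin promoters and enhancers, 21 were tested, 8 rose and 3 fell, beside 9.15% and 11.4% of all tested genes. Of them, 4 rose and 0 fell at least 2-fold, beside 7.53% of all tested genes in either direction. NFKB1, which encodes an NF-κB subunit, rose from 66.5 ± 4.98 to 237 ± 25.9 TMM-scaled CPM (log2 fold change 1.84 ± 0.12, adjusted p = 1.21e-06, edgeR). PRDM1, the plasma cell regulator Blimp-1, rose by 1.35 ± 0.12 and IRF4, needed for plasma cell survival, by 0.65 ± 0.10 (adjusted p = 1.56e-05 and 0.00106, edgeR). POU2F2, the octamer-binding factor Oct-2, rose by 1.83 ± 0.27 from a low level of 0.987 ± 0.398 CPM. SPIB, IKZF1, RELA and REL also rose, though RELA lost the call without GST library 4 or 5 or GST-PTR1 library 2 or 5, and REL without GST library 4 or GST-PTR1 library 5. On library totals RELA and REL both lost it. XBP1, the factor that widens the secretory pathway, fell from 402 ± 39.2 to 290.3 ± 22.1 TMM-scaled CPM (log2 fold change -0.47 ± 0.11, adjusted p = 0.0149, edgeR), as did SPI1 and MEF2C. Without GST-PTR1 library 5 none of these 3 passed, and without GST library 4 SPI1 alone did. MEF2C also lost the call without GST library 3 or 5 or GST-PTR1 library 4. The members had a median log2 fold change of 0.28 after TMM scaling, and no test set the lists against each other. Whether these factors act on the members in this line was not tested.

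Of 7 genes that process heavy chain mRNA, all 7 were tested, 1 rose (ELL2) and 0 fell, beside 9.15% and 11.4% of all tested genes. ELL2, an elongation factor that steers plasma cells to the secreted form of the heavy chain, rose from 55.02 ± 6.63 to 239.7 ± 24.98 TMM-scaled CPM (log2 fold change 2.12 ± 0.13, adjusted p = 7.04e-07, edgeR). Its partner gene EAF2 had a log2 fold change of 0.54 ± 0.18 and SUB1 of 0.48 ± 0.18, which did not pass (adjusted p = 0.0599 and 0.0869, edgeR). They did without GST-PTR1 library 2 and with DESeq2's test. HNRNPLL, HNRNPF and HNRNPH1, which encode RNA-binding proteins, had -0.30, 0.19 and 0.20. Gene counts do not separate the secreted from the membrane form of the heavy chain, so the use of either form was not measured.

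**Figure D4:**
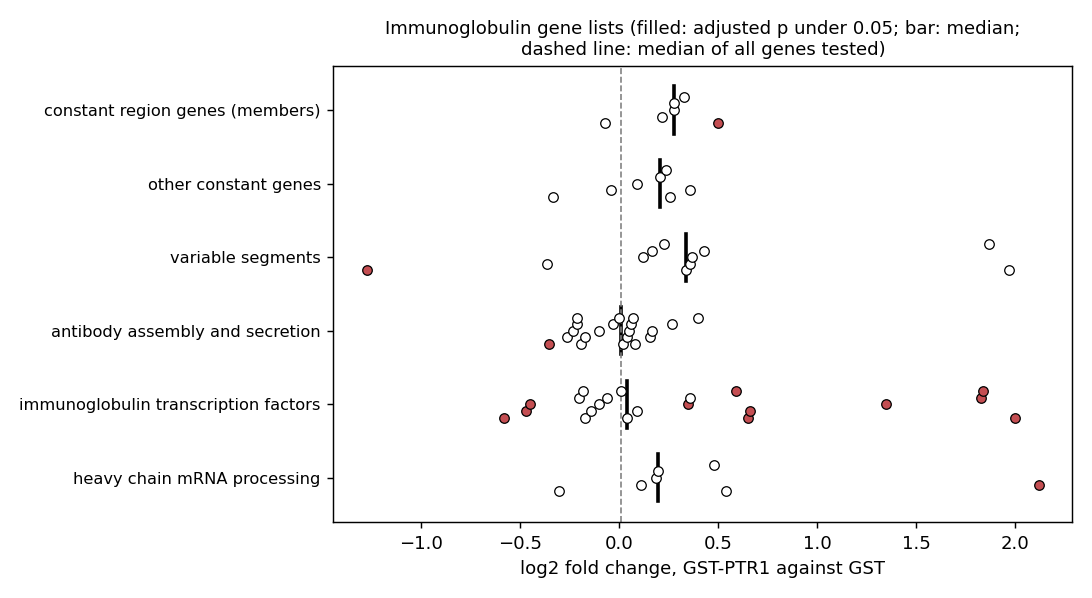
Log2 fold change of GST-PTR1 against GST for each tested gene of 6 immunoglobulin lists; filled points have an adjusted p under 0.05, thick bars are list medians and the dashed line is the median of all genes tested, 0.01. The 6 constant region genes lie between -0.07 and 0.50, inside the span of the transcription factors, whose called genes reach from -0.58 to 2.00.

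The genes whose level followed IGLC3 most closely over the 6 libraries were SSR4 (Pearson's r = 0.990), AAR2 and RPL34P18 (both 0.988). They were sought among 13340 genes with a mean count of at least 50, with the listed immunoglobulin genes left out. AAR2 takes part in spliceosome assembly and RPL34P18 is a ribosomal protein pseudogene. With 6 points that share library scaling, and the treatment among them, these values describe the libraries only.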

How the data were processed

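RNA-Seq had been performed on mRNA libraries of a strand-specific kit from 6 samples of RPMI8226 cells. The authors deposited raw gene counts from featureCounts 1.5.0-p1 (Ensembl release 75, GRCh37, reverse strand, each read counted on its own). Multi-mapped reads, and those on more than 1 gene, were left out by that program. The processing notes of the submitters also name Subread, and the aligner's version is not given in the sources used here. The deposited table also holds exon lengths, and 0 columns of library values were left unused.

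Symbols were found for 52181 of the 63677 identifiers. Libraries were grouped by the treatment in the column names, and were not paired, since the numbers there differ from those of the samples. No library pair within a treatment agreed within sampling noise (smallest chi-square per gene 8.38). From the deposited counts, CPM and RPKM were computed on library totals and exon lengths. Treatments were compared in R 4.3.3 with edgeR 4.0.16 (TMM factors, filterByExpr, glmQLFit and glmQLFTest) on the whole table, with Benjamini-Hochberg adjustment over 16926 genes and a threshold of 0.05. The fit was tested on simulated data. Sums and shares were compared by two-sided exact permutation tests over libraries. The p-values measure only the spread between these libraries. Sequences were read by transcript name from GENCODE release 29 and compared with Biopython 1.88, and the stretches of 50 and 100 bases were chosen after the counts had been seen.

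The members and gene lists were chosen with earlier results of these data known. Named genes are all members, the 3 genes of each list with the smallest adjusted p and the 3 with the highest RPKM, variable segments with at least 1 RPKM, and the 3 genes most like the highest member. COPDA1, ENSG00000231486, IGHG4, IGHD, IGHE, SPIB, IKZF1, REL, SPI1 and MEF2C were named after their values were seen. The summed level of 1 marker list is not reported here. As alternatives, scaling by library totals or by the size factors of DESeq2 was used, DESeq2 1.42.0 and limma 3.58.1 (voom) were used as tests, and the filter on low counts was set to 1 count in any library or 10 in every library. Further fits used library sizes without the listed immunoglobulin genes, left out each library, or kept the 4 libraries whose numbers are shared.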

Additional observations from a re-analysis of the deposited data

How the results depend on the processing

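IGHG2 kept its direction in all 15 alternative fits and its call in 14 of them, with log2 fold changes from 0.31 to 0.54. On library totals 0 members were called in edgeR, beside 5.48% of all tested genes that rose. With DESeq2's test and with the filter of at least 1 count 2 were called, IGHG2 and IGLC3. The number of genes higher over the whole table with that filter is given below. The share that DESeq2's test called is not given, so its counts cannot be set beside a background. IGLC3, IGLC2, IGHG1 and IGHG3 stayed positive in every fit, at 0.13 to 0.41, 0.08 to 0.38, 0.09 to 0.38 and 0.03 to 0.31. IGHA1 changed sign in 5 of the 15 fits without passing in any: 0.02 with limma's voom, 0.34 without GST library 3, 0.01 without GST-PTR1 library 4, 0.28 with the replicate block and 0.27 in the same 4 libraries without it. The cause was not tested. Leaving out each library in turn gave 1 called member each time, beside 1051 to 1531 genes higher over the whole table, and IGHA1 values from -0.30 to 0.34.

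Libraries numbered 4 and 5 in each treatment were fitted with the number as a block. The deviations of same-numbered libraries had Pearson's r of -0.03 for both numbers, and the labels do not pair them. With the replicate block, 1 other constant gene (IGHGP), 0 assembly genes lower, 3 heavy chain mRNA processing genes higher and 1 variable segment higher were called; without the block these 4 libraries gave 1, 0, 3 and 2, and 1 assembly gene higher. RELA and XBP1 were not called in either fit of the 4 libraries.

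Library totals gave 927 genes higher and 3788 lower in place of 1549 and 1937, with 4 assembly genes lower, 1 mRNA processing gene lower and 1 variable segment higher. The filter of at least 1 count, with 31617 genes tested, gave 2608 higher, and 5 variable segments, 3 mRNA processing genes and 1 assembly gene higher and 0 assembly genes lower. DESeq2's test called 1 assembly gene, 3 mRNA processing genes and 1 variable segment higher. Leaving out single libraries gave 0 to 1 other constant genes higher, 0 to 1 assembly genes higher and 0 lower, 0 to 3 transcription factors lower, 1 to 3 mRNA processing genes higher, 0 to 2 variable segments higher and 1179 to 1818 genes lower over the whole table.

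The difference of the summed members rose from 817 to 2447 CPM with TMM-scaled totals, and that of the lambda members from 832 to 2429 CPM. Heavy chain members differed by -14.6 CPM on library totals and 17.7 CPM after TMM scaling, within the spread in both cases. With 3 libraries a treatment, and counts that may be partial for the 6 members tested, small changes of the members may go unseen.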

Other observations

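Besides ENSG00000231486, described above with 1230 to 4368 counts (83.7 ± 2.78 CPM under GST, 87.3 ± 9.01 CPM under GST-PTR1), and IGKC, whose shared bases were not counted, the kappa locus held a few genes with low counts. ENSG00000240040, an annotated gene on the minus strand of chromosome 2 from 89109984 to 89161075 (GRCh37) with no name in the tables used, had 1, 1 and 0 counts under GST and 9, 17 and 13 under GST-PTR1. It was below the filter on low counts and was not tested. It overlaps the span of ENSG00000231486, and it was picked after its counts had been seen. The joining segments IGKJ3, IGKJ4 and IGKJ5 had 10 to 37, 14 to 25 and 8 to 33 counts, and overlapped between treatments.

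Of the genes of the surrogate light chain and of the receptor that carries membrane antibody, 4 of 5 were tested. In edgeR 0 were called, beside 20.6% of all tested genes, and DESeq2's test called 0. At an unadjusted p under 0.05 there were 0, beside 5964 of the 16926 genes tested. With so few genes, a count of 0 says little about the list. IGLL1 and VPREB3 had 0.916 and 0.908 CPM with GST and 1.22 and 1.03 CPM with GST-PTR1. VPREB1 had 0.633 and 0.523 CPM, and CD79A, the receptor's signaling chain, 0.796 and 0.539 CPM.

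Among marker lists of other cells, summed T cell markers were 6.47 to 7.63 CPM with GST and 2.98 to 3.89 CPM with GST-PTR1, with CD8A as the main contributor, at 4.17 CPM over all libraries. Epithelial markers, mainly EPCAM and KRT18, were 169 to 183 CPM and 113 to 122 CPM. Myeloid markers were 0.981 to 2.10 CPM and 1.18 to 1.57 CPM, with MPO at 0, erythroid markers 5.26 to 5.83 CPM and 2.89 to 5.37 CPM, and stromal markers 0.263 to 0.512 CPM and 0.291 to 0.393 CPM. Their part in the values of the constant region genes was not tested.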
